A study of Mus musculus with 2 samples.

Results

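The genes described here take iron into the cell, store it, export it and set its level. They are 10 genes of the mouse: Tfrc, Steap3 and Slc11a2 for uptake, Fth1 and Ftl1 for storage, Slc40a1 for export, Aco1, Ireb2 and Fbxl5 for regulation, and Hmox1 for the release of iron from heme. Every probe set of the array whose platform annotation names 1 of these genes and no other was taken, and the rule itself uses no measured value. A probe set is a group of short oligonucleotides directed against a transcript. Of the 45037 probe sets that are no controls, 20 belonged to the iron genes, and they covered 9 of the 10 genes. The 3 probe sets that name Ftl1, the ferritin light chain, name other loci as well, so no level is given for it. A further 3 probe sets for Tfrc belong to the controls of the array and were read as values only.

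RNA came from CH cells, small cells without CD45 and lineage antigens that were sorted by flow cytometry from the peripheral blood of healthy mice, after lysis of the red cells. The labels call them PlCH cells. They give the strain C57bl/6, both sexes, an adult age of 7 months and 15 mice for each of 2 pools, with no treatment or genetic change, while the general methods of the paper give younger mice and smaller pools. Each pool was hybridized to 1 Affymetrix whole-genome mouse array, so array 1 and array 2 are the replicates, and there is no other group to compare them with. Each array averages many animals and all sorted cells, and fewer cells with a transcript cannot be told apart from less RNA per cell.

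Iron bound to transferrin in plasma enters a cell through the transferrin receptor and is released in endosomes, where a reductase converts it so that a transporter can carry it into the cytosol. There it is used for heme and iron-sulfur clusters, stored in the shell of ferritin or exported through ferroportin. When iron is scarce, iron regulatory proteins bind hairpins in messenger RNA called iron-responsive elements, which blocks translation of ferritin and protects the transcript of the transferrin receptor from decay. Because much of this control acts on translation and protein stability, transcript levels give only part of the state of the pathway. Dividing cells and red cell precursors are known for high transferrin receptor, and macrophages that recycle red cells for high ferroportin and heme oxygenase.

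Signals are log2 values as deposited by the authors. Over all 45037 probe sets the arrays had medians of 5.54 and 5.52, and their differences probe set by probe set spread with an SD of 0.20. The limit of 5 follows a level that the paper's methods used to leave out weak genes, and a gene passed it if any of its probe sets exceeded 5 on array 1 and on array 2. Of 77 genes of smell, pheromone and taste receptors, which serve as a background, 13 (16.9%) also passed this limit, and the highest of them, Vmn1r44, reached 6.92. The 95th percentile of their probe sets was 6.02. Signals of different probe sets depend on their oligonucleotides, so they do not rank genes by abundance.

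All 9 measured iron genes were above 5 on both arrays, where 71.2% of all 18193 genes were. Of their 20 probe sets, 17 were above 5 on both arrays, beside 57.2% of all probe sets. The other 3 were 2 probe sets of Steap3 and 1 of Aco1. The same 17 exceeded 5 by limma at an adjusted p under 0.05, against 54.8% of all probe sets, and the highest adjusted p among them was 0.0287. Above 8 on both arrays were 6 of the 9 genes, namely Fth1, Tfrc, Hmox1, Aco1, Ireb2 and Fbxl5, beside 37.0% of all genes. The median level of the 9 genes, with the highest probe set of each, was 9.74, and that of all genes was 6.84. Counts for the further lists below stand beside the same shares of all genes, 71.2% above 5 and 37.0% above 8.

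**Figure D1:**
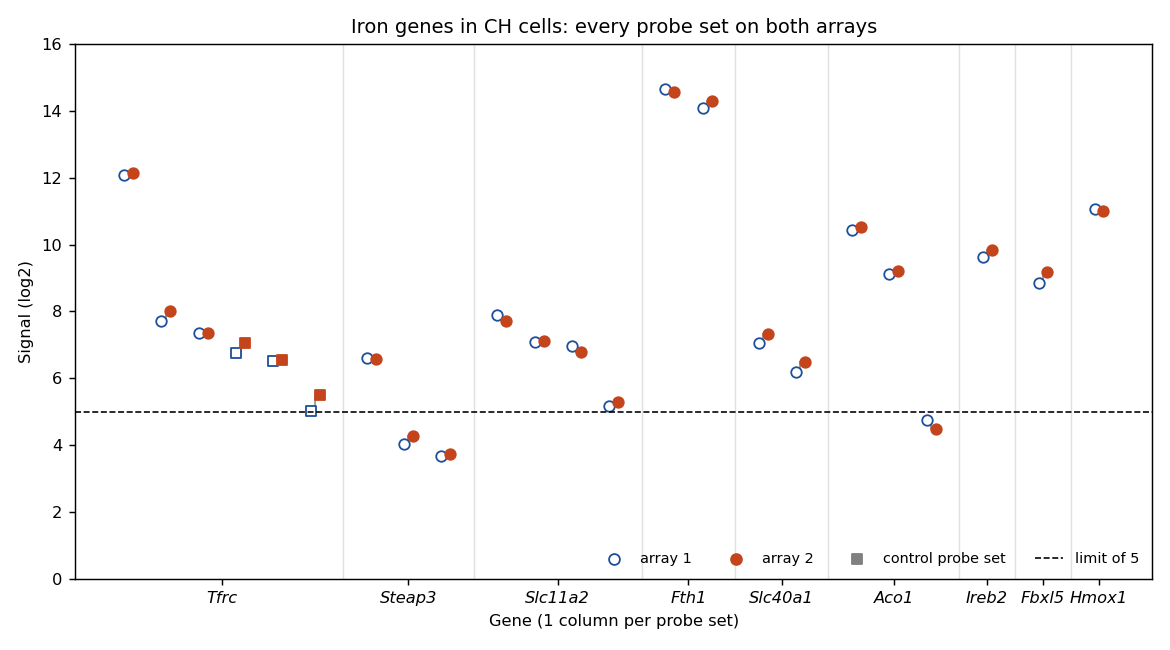
Log2 signal of every probe set of the iron genes in CH cells, with 1 column per probe set, an open blue symbol for array 1 and a filled red symbol for array 2. Squares are control probe sets of Tfrc and the dashed line marks 5. Fth1 lies above 14 with both probe sets, the probe sets of Tfrc run from 12.12 down to 5.27, and 2 probe sets of Steap3 and 1 of Aco1 lie below the line.

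Tfrc, the transferrin receptor that takes up iron-loaded transferrin, had a high signal with 1 of its 3 regular probe sets. Probe set 1452661_at was at 12.08 on array 1 and at 12.15 on array 2, a mean of 12.12 ± 0.05 (SD, n = 2 arrays), and exceeded 5 by 7.12 ± 0.07 (SE; adjusted p = 8.91e-08 by limma). Of all probe sets, 97.9% had lower means. The others were far lower. Probe set 1422966_a_at was at 7.71 and 8.02, and 1422967_a_at at 7.34 and 7.36. The highest exceeded the next by 4.37 on array 1 and 4.13 on array 2 (mean 4.25 ± 0.17, SD), against an SD of 0.20 between the arrays over all probe sets.

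The control probe sets of Tfrc lie in the 3', middle and 5' stretches of the transcript. The 3' set was at 6.76 and 7.05, the 5' set at 6.53 and 6.54, and the middle set at 5.03 and 5.50. All 3 were above 5 on both arrays, and all were below each of the 3 regular probe sets. The 3' set exceeded the 5' set by 0.23 on array 1 and by 0.52 on array 2, while the middle set lay below both ends, under the 3' set by 1.73 and 1.55. These gaps compare different oligonucleotides and do not show whether the signal declines along the transcript. The part of RNA quality in them was not tested.

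Steap3, the endosomal reductase that works beside the transferrin receptor, had 1 probe set above 5 and 2 below. Its highest probe set, 1423468_at, was at 6.61 on array 1 and 6.59 on array 2 (mean 6.60 ± 0.02, SD, n = 2 arrays; adjusted p = 7.90e-06 by limma against 5). Receptor genes that serve as a background reached up to 6.92. The other probe sets were below 5 on both arrays, 1430355_a_at at 4.03 and 4.26 and 1453498_x_at at 3.66 and 3.74. Taken as the median of the 3, the level of Steap3 was 4.15 and did not pass the limit.

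Slc11a2, also known as DMT1, moves iron from the endosome into the cytosol. All 4 of its probe sets were above 5 on both arrays. Probe set 1452078_a_at was highest, at 7.88 and 7.72 (mean 7.80 ± 0.11, SD, n = 2 arrays). Below it, 1426441_at was at 7.08 and 7.12 and 1417584_at at 6.97 and 6.79, a pair that differed by 0.12 on array 1 and 0.33 on array 2. The lowest, 1441709_at, was at 5.18 and 5.28 and passed limma's test narrowly (adjusted p = 0.0287). It lay under the 95th percentile of the receptor probe sets.

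Other genes of uptake and reduction were spread over nearly the whole range. Of 14 measured, 11 (78.6%) were above 5 and 5 above 8. Snx3, a sorting factor that returns the transferrin receptor to the surface, was at 12.46 ± 0.03 (SD, n = 2 arrays). Steap1 and Steap2, relatives of Steap3, were at 11.75 ± 0.02 and 10.95 ± 0.03. The other probe set of Steap1 was at 11.42, and the 4 others of Steap2 lay between 6.44 and 9.06. Steap4, a further relative, was at 5.18 on array 1 and 4.97 on array 2 and was not called. Lcn2, which binds bacterial iron carriers, was at 5.36 and 4.96. Cd163, the receptor for haptoglobin-bound hemoglobin on macrophages, was at 3.68 and 3.82. Among these Steap genes, every probe set of Steap1 and Steap2 was thus above 5 on both arrays, while Steap3 had 1 such probe set of 3 and Steap4 had 0 of 2.

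Fth1, the heavy chain of ferritin that oxidizes iron for storage, was above 14 with both probe sets on both arrays. Probe set 1427021_s_at was at 14.64 on array 1 and 14.56 on array 2, and 1448771_a_at at 14.09 and 14.29. The means were 14.60 ± 0.06 and 14.19 ± 0.14 (SD, n = 2 arrays), with an adjusted p of 8.91e-08 by limma for both. Of all probe sets, 99.98% and 99.83% had lower means. The ending _s_at marks a set whose oligonucleotides match several transcripts, so the first set does not tell Fth1 from close copies of it. The set without this ending was within 0.55 of it on array 1 and within 0.28 on array 2.

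Of the genes that load and recycle ferritin, 6 of 7 were above 5 (85.7%) and 5 above 8. Pcbp1, a chaperone that delivers iron to ferritin, was at 13.26 ± 0.01 (SD, n = 2 arrays) and its relative Pcbp2 at 13.02 ± 0.08, with other probe sets of Pcbp2 at 9.18 and 6.45. Ncoa4, the receptor that carries ferritin to lysosomes, was at 10.44 ± 0.05 and 9.54 with its 2 probe sets. Ftmt, the ferritin of mitochondria, was at 4.36 on array 1 and 4.15 on array 2, both under 5.

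Slc40a1 encodes ferroportin, the exporter of iron. Its probe set 1417061_at was at 7.04 on array 1 and 7.33 on array 2 (mean 7.18 ± 0.20, SD, n = 2 arrays; adjusted p = 7.49e-06 by limma against 5), and 1448566_at was at 6.18 and 6.48 (mean 6.33 ± 0.21). Both were above 5 and neither reached 8. The second lay under the 6.92 of the highest receptor gene. Both probe sets were higher on array 2, by 0.28 and 0.30.

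Among genes for export and for the transport of heme, 6 of 8 (75.0%) were above 5 and 2 above 8. Of the ferroxidases that assist ferroportin, Heph was at 3.82 ± 0.16 and Hephl1 at 4.32 ± 0.21 (SD, n = 2 arrays), both below 5 on both arrays. Ceruloplasmin, Cp, was at 7.00 ± 0.11 with the highest of its 8 probe sets and at 3.50 with the lowest. The heme transporter of lysosomes, Slc48a1, was at 10.28 and 10.20 with its 2 probe sets, Abcg2, an exporter of porphyrins and many drugs, at 9.99 ± 0.04, and Flvcr1, a heme exporter, at 7.87 ± 0.03. Flvcr2 was above 5 on both arrays, at 5.22 and 5.04, but did not pass limma's test (adjusted p = 0.172).

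All 3 regulators were above 8. Aco1 encodes iron regulatory protein 1, which is an aconitase when it holds an iron-sulfur cluster and binds RNA when it does not. Its probe set 1456728_x_at was at 10.44 on array 1 and 10.53 on array 2, 1423644_at at 9.12 and 9.21, and 1447080_at at 4.75 and 4.48. The last was under 5 on each array (limma adjusted p = 0.0104), while the others exceeded 5 with an adjusted p of 2.19e-07 or less. The ending _x_at marks oligonucleotides that may bind unrelated transcripts, and without this set the level of Aco1 was 9.16 ± 0.07 (SD, n = 2 arrays).

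Ireb2, iron regulatory protein 2, which is controlled through its breakdown, was at 9.63 on array 1 and 9.84 on array 2 (mean 9.74 ± 0.15, SD, n = 2 arrays; adjusted p = 2.24e-07 by limma against 5). Fbxl5, the iron-sensing ligase subunit that marks this protein for breakdown, was at 8.84 and 9.17 (mean 9.01 ± 0.23; adjusted p = 7.89e-07). Each is read by a single probe set, and both were higher on array 2.

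Of the partners of Fbxl5 in its ligase complex, Skp1a was at 12.87 ± 0.03 (SD, n = 2 arrays), Cul1 at 10.16 ± 0.02, and Rbx1 at 5.21 and 4.98, so that 2 of 3 (66.7%) were called. Rbx1 is read by a single probe set, which alone does not settle its level. Fth1, Slc40a1, Tfrc and Slc11a2 are known to carry iron-responsive elements in at least some transcripts. Other transcripts with such an element stood at the limit. Epas1, a hypoxia-inducible factor, was at a mean of 5.09 ± 0.12 (SD, n = 2 arrays; adjusted p = 0.344 by limma), and Alas2, the heme synthesis enzyme of red cell precursors, at 4.95 and 4.86 (adjusted p = 0.258).

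Hmox1, the inducible heme oxygenase that frees iron from heme, was at 11.06 on array 1 and 11.01 on array 2, a mean of 11.04 ± 0.04 (SD, n = 2 arrays; adjusted p = 9.25e-08 by limma against 5). Its only probe set was higher than 94.9% of all probe sets. Hmox2, the constitutive form, was at 10.32 ± 0.03. The biliverdin reductases Blvra and Blvrb, which act on the product of heme oxygenase, were at 9.40 ± 0.14 and 9.37 ± 0.01. Of the plasma proteins that bind free hemoglobin and heme, Hp was at 5.63 ± 0.14 and Hpx at 4.84, below 5 on both arrays. In this group 4 of 5 genes (80.0%) were above 5.

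The transcription factors Nrf2 and Bach1 are known to switch on and repress Hmox1, and ferritin and ferroportin genes are also among their targets. All 11 measured genes of this pathway were above 5, beside 71.2% of all genes, and 9 (81.8%) were above 8, beside 37.0% of all genes. Nfe2l2, which encodes Nrf2, was at 12.03 ± 0.05 (SD, n = 2 arrays), with a second probe set at 6.35. Txnrd1, a thioredoxin reductase, was at 11.58 ± 0.01 and Gclm, a subunit of the enzyme for glutathione synthesis, at 10.54 ± 0.02. Bach1 was at 9.32 ± 0.05 and 6.02 with its probe sets. The lowest of the group was Nqo1, a quinone reductase, at 6.88 ± 0.05.

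Heme synthesis was represented by its general enzymes. Of 10 genes, 9 (90.0%) were above 5 and 6 above 8, and the exception was Alas2. Its counterpart in other tissues, Alas1, was at 8.41 ± 0.04 (SD, n = 2 arrays) and 7.45 with its 2 probe sets. Tmem14c, a porphyrin transporter of mitochondria, was at 10.81 ± 0.05, Urod at 10.58 and Alad at 10.27 ± 0.01, both enzymes of the pathway. The other probe set of Urod was at 9.34 and that of Alad at 6.03. Genes of mitochondrial iron import and of iron-sulfur cluster assembly were above 5 in 20 of 20 cases and above 8 in 19. The chaperone Hspa9 was at 13.00 ± 0.15, Glrx5, which passes clusters on, at 11.94 ± 0.04 and Nfu1, a late assembly factor, at 11.90 ± 0.03. Other probe sets of Hspa9 ran from 12.56 down to 6.17, and that of Nfu1 was at 10.67. The importers Slc25a37 and Slc25a28 were at 8.29 ± 0.05 and 9.15 ± 0.06.

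Hepcidin, the liver hormone that triggers the breakdown of ferroportin, is encoded by Hamp. This gene was at 4.40 ± 0.03 (SD, n = 2 arrays) and 3.47 with its 2 probe sets, below 5 on both arrays. Hamp2, a close copy in the mouse, was at 6.93 ± 0.13 and 4.68. Its higher probe set has the ending _x_at and lay just above the 6.92 of the highest receptor gene. Bmp6, the signal that raises hepcidin in liver, was at 4.76 ± 0.12, below 5 on both arrays. The receptors and the effector of this signal, which serve many tissues, were higher, with Smad4 at 11.16 ± 0.04, Bmpr2 at 10.32 ± 0.03 and Acvr1 at 10.12 ± 0.06. Their other probe sets were at 10.34 and 9.59 for Smad4, 6.31 and 5.32 for Bmpr2, and 8.45 and 5.23 for Acvr1. In all, 10 of 12 genes of this axis (83.3%) were above 5.

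Over these lists together, which hold 91 measured genes beside the 9, 80 genes (87.9%) were above 5, beside 71.2% of all genes, and 56 (61.5%) above 8, beside 37.0% of all genes. The shares above 5 of several single lists, such as those of export, uptake and heme breakdown, lay within 10 percentage points of the share of all genes. Below that share were the partners of Fbxl5 at 66.7% and the further transcripts with an iron-responsive element at 50.0%. The erythroid and macrophage markers, which are not among the 91, were also below it, at 55.6% each. The 11 that were not above 5 were Steap4, Lcn2, Cd163, Hamp, Bmp6, Heph, Hephl1, Ftmt, Rbx1, Alas2 and Hpx. Of these, Hamp and Hpx are known from liver, Heph from gut, Cd163 from macrophages, Ftmt from testis and Alas2 from red cell precursors. No tissue is given here for Steap4, Lcn2, Bmp6, Hephl1 and Rbx1. Hamp2, a close copy of Hamp, and Hp, a plasma protein like Hpx, were above 5, at 6.93 and 5.63. So were Tmprss6 and Hfe2 of the hepcidin axis, at 6.56 and 5.41, and Tfr2 of the uptake list, at 6.97. Whether tissue separates genes above 5 from the others was not tested. The median of the 91 genes was 8.95. A further 7 listed genes were not analysed here.

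**Figure D2:**
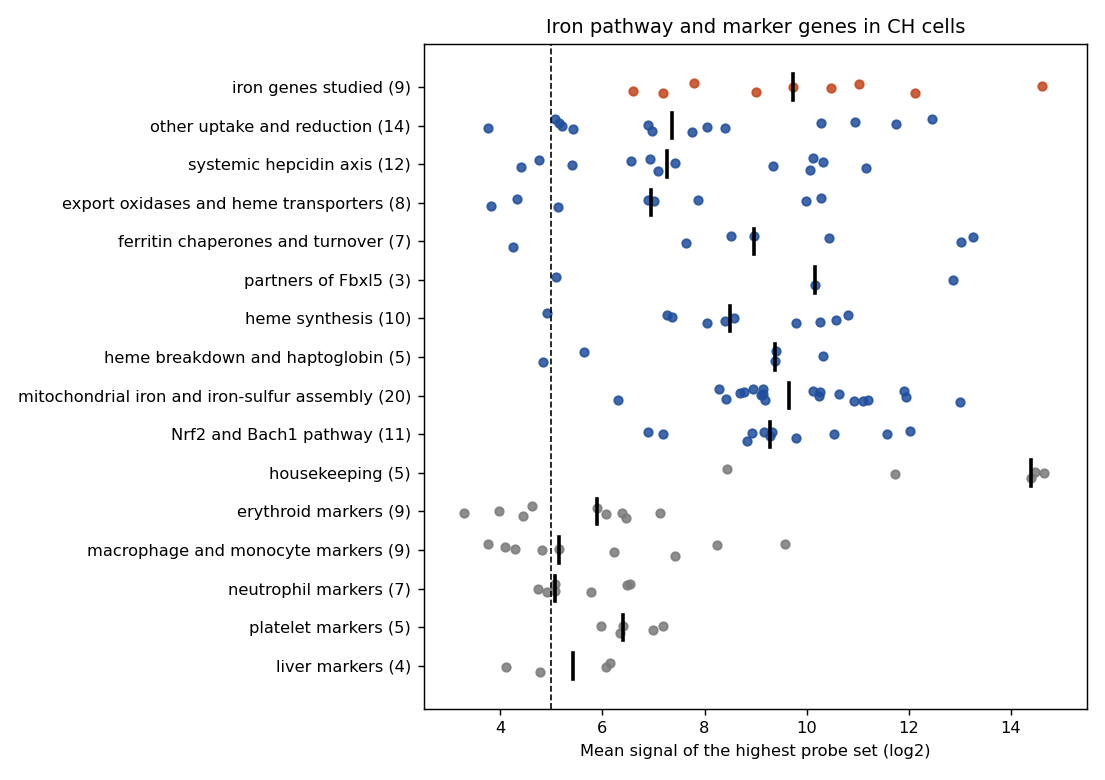
Mean log2 signal of both CH cell arrays by list, with 1 point per gene read from its highest probe set, the number of genes in brackets and a black bar at the median. The iron genes studied are red, other genes of the pathway blue, and housekeeping and cell type markers grey. The lists of further transcripts with an iron-responsive element and of targets of the sorting antibodies are not shown. The dashed line marks 5. The 9 iron genes have a median of 9.74, genes of iron-sulfur assembly one of 9.66 and erythroid markers one of 5.90.

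Between the 2 pools the largest difference among the 20 probe sets of the iron genes was 0.32 and the smallest 0.02. Array 2 was higher in 14 of 20, where 50.2% of all probe sets were higher on array 2, and probe sets of 1 gene share their transcript. The difference exceeded the SD of 0.20 in 7 of 20, against 27.4% of all probe sets. Fbxl5 differed most, with 9.17 on array 2 and 8.84 on array 1. Of the 3463 probe sets within 0.5 of its level, 2.40% differed by more. The next were 1422966_a_at of Tfrc, higher on array 2 by 0.31, and both probe sets of Slc40a1.

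The probe set 1448771_a_at of Fth1 was higher on array 2 by 0.20. Of the 171 probe sets within 0.5 of its level, 0 differed by more. The other probe set of Fth1 was lower on array 2, at 14.56 against 14.64. Since the probe sets moved in opposite directions, the data give no direction for Fth1. For Slc40a1 both moved the same way, and of probe sets at their levels 14.2% and 17.5% differed by more. With 1 array per pool no difference between the pools was tested.

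**Figure D3:**
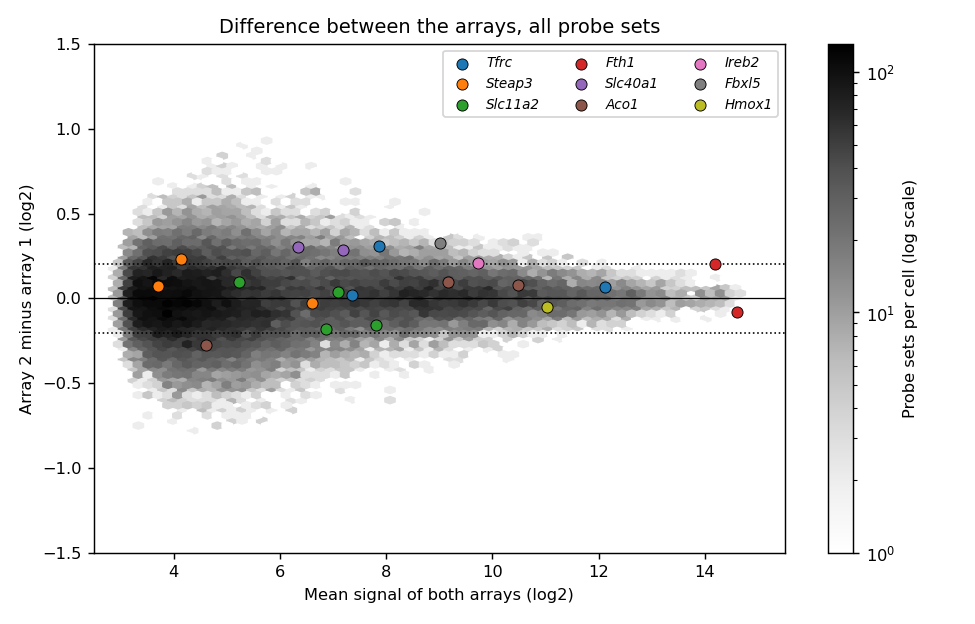
Difference between the arrays (array 2 minus array 1, log2) against the mean of both for all 45037 probe sets in grey, with the 20 probe sets of the iron genes in colour. Dotted lines mark 1 SD of the difference (0.20) on either side of 0. Fbxl5 and both probe sets of Slc40a1 lie above the upper line, 1 probe set of Aco1 lies below the lower line, and the probe sets of Fth1 lie on opposite sides of 0.

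Probe sets of the same gene often lay further apart than the arrays did. In the 6 iron genes with more than 1 probe set, the order of the probe sets was the same on both arrays in 6 of 6. The span from the highest to the lowest probe set was 5.87 for Aco1 and 4.77 for Tfrc. Of the 2366 genes with 3 probe sets, 9.64% spanned more than Aco1 and 18.5% more than Tfrc, and their median span was 2.55. Steap3 spanned 2.90, close to that median. Slc11a2 spanned 2.57, below the median of 3.43 for the 1093 genes with 4 probe sets. For Slc40a1 and Fth1 the probe sets lay 0.85 and 0.42 apart, where the median of the 4695 genes with 2 was 1.24.

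**Figure D4:**
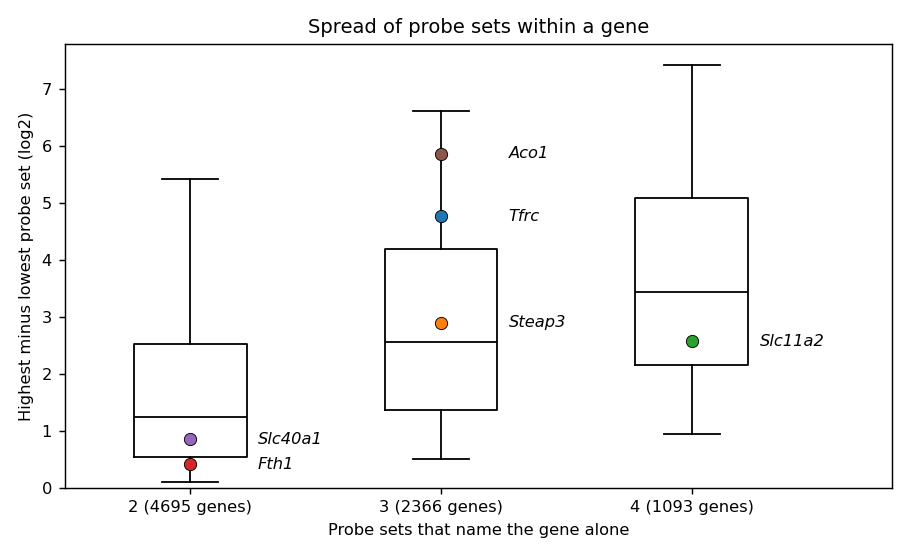
Difference between the highest and the lowest probe set of a gene (log2, mean of both arrays), by the number of probe sets that name the gene alone. Boxes show the quartiles and the median over all such genes, whiskers the 5th and 95th percentiles, and coloured points the iron genes. Aco1 at 5.87 and Tfrc at 4.77 lie above their box, while Fth1 at 0.42 lies below its box.

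Markers of cells known for particular iron genes were read beside these levels. Of 9 erythroid genes, 5 (55.6%) were above 5 and 0 above 8. Hbb-b1, the beta-globin, was at 3.98 ± 0.07 (SD, n = 2 arrays), Rhag at 3.28 ± 0.19, Slc4a1, the anion exchanger of red cells, at 4.44 ± 0.26 and Epb4.2 at 4.62 ± 0.14, all below 5 on both arrays. Hba-a1, the alpha-globin, was at 6.46 ± 0.05 with 1 probe set and 4.22 with the other, and Epor, Gata1, Rhd and Klf1 lay between 5.90 and 7.14. Of these, Epor at 7.14 was above the highest receptor gene, and Hba-a1, Gata1 and Rhd were above the 95th percentile of the receptor probe sets. Only probe sets that name 1 gene were read, so any set shared by several globin copies was left out of these globin levels. The part of red cells and their precursors in the level of Tfrc was not tested.

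Of 9 macrophage and monocyte markers, 5 (55.6%) were above 5 and 2 above 8. Marco, counted among the 5, was at 5.16 ± 0.19 and did not pass limma's test (adjusted p = 0.158). Lyz2, lysozyme, was at 9.58 ± 0.13 (SD, n = 2 arrays), Cd14 at 8.25 ± 0.08 and Csf1r, the receptor of a macrophage growth factor, at 7.42 ± 0.10. Cd163, Vsig4, Spic, a factor of macrophages that recycle red cells, and Emr1, which encodes F4/80, were not above 5, at 3.75, 4.29, 4.08 and 4.82. Neutrophil markers were above 5 in 5 of 7 cases (71.4%), beside 71.2% of all genes. S100a9 was highest at 6.54 ± 0.19, under the 6.92 of the highest receptor gene, and Mpo and Ngp were not above 5. Camp and Ltf, at 5.07 and 5.06, did not pass limma's test (adjusted p = 0.401 and 0.433), which left 3 of 7. Platelet markers were above in 5 of 5, beside the same 71.2% of all genes, the highest being Itga2b at 7.18. Of 4 liver genes 2 were above, and Alb, serum albumin, was at 4.11 ± 0.31 and Fgb, a fibrinogen chain, at 4.71 and 4.86. None of the neutrophil, platelet or liver markers was above 8.

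Ptprc, which encodes the CD45 antigen that the sort removed, was at 4.95 on array 1 and 5.24 on array 2 with its higher probe set and was not called above 5. Itgam, a myeloid integrin, was at 3.85 ± 0.09 (SD, n = 2 arrays), and Cd3e of T cells at 6.61 ± 0.07. Cd3e was above 5 on both arrays (adjusted p = 9.06e-06 by limma) and under the 6.92 of the highest receptor gene. These 3 genes were listed as targets of the sorting antibodies, and 1 of them (33.3%) was above 5, beside 71.2% of all genes. All 5 measured housekeeping genes were above 8. The part of other cells in the levels of Hmox1, Slc40a1 and Fth1 was not tested.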

How the data were processed

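RNA of CH cells from 2 pools was measured on 2 Affymetrix mouse arrays, 1 for each replicate of a single group. Each array was deposited by the authors as 1 column of log2 values, 1 for every probe set. Their methods describe RMA and quantile normalisation with 5 public series. The link between that run and these values, and the software versions, are not given in the sources used here. If these values come from that run, the normalisation brought the signals of all its arrays to a shared distribution. After removal of 64 controls, 45037 probe sets remained, of which 34945 name 1 gene in the platform annotation. Symbols matched through Entrez identifiers for 34741 and changed in 0. Probe sets that name Hba-a2, Hbb-b2 or another globin copy alone counted under Hba-a1 and Hbb-b1. No coordinates are given because no genome build is named for the values.

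The highest probe set stood for a gene. In R 4.3.3, limma 3.58.1 set each mean against 5 in an intercept fit with empirical Bayes moderation, two-sided, with Benjamini-Hochberg adjustment over all 45037 probe sets, and was tested on simulated data. With 2 arrays p-values and the SE rest on the spread between these pools, that of each probe set moderated by that of all probe sets. The number of arrays limits the precision. Members and lists were chosen with earlier results of these data known. Named were all members and, of the other lists, up to 3 genes with the highest mean and each gene not above 5. Cp, Bach1, Nqo1, Epas1, the reductases, the importers and other genes beyond this were named after their values were seen. Alternatives were limits of 6, of 8 and at the 95th percentile of receptor probe sets, limma calls, quantile normalization of both arrays, omission of either array, the median over probe sets, and removal of _s_at and _x_at probe sets. Python 3.11.15, numpy 2.4.6, pandas 2.3.3 and matplotlib 3.10.9 were used.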

Additional observations from a re-analysis of the deposited data

How the results depend on the processing

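The counts of iron genes (9), of their probe sets above the limit (17) and of other genes of the pathway (80) stayed within 1.5 times under the alternatives run, except that a limit of 8 left 8 of the probe sets, since a higher limit admits fewer. At that limit 6 of the 9 genes and 56 of the others remained above. Limits of 6 and at the 95th percentile of receptor probe sets gave 16 probe sets, 9 genes and 74 others each. With either array left out the counts were 17, 9 and 80 to 83. The median over probe sets gave 8 genes, without Steap3, and moved the levels of 6 genes by more than the SD between arrays, most of all Tfrc, to 7.87. Without _s_at and _x_at probe sets Fth1 was at 14.19 and Aco1 at 9.16. Quantile normalization of both arrays, added after the data were seen for the count of probe sets higher on array 2, gave 13 in place of 14. No paired analysis was possible because both arrays belong to the same group. Probe sets near background limit what can be said of Steap3 and of the lower probe set of Slc40a1.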
